A study of Homo sapiens with 9 samples.

Results

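Of 40703 regions of open chromatin in Jurkat cells, 660 were covered by a peak in the lists labelled NS DMSO and SW rottlerin and by no peak in the lists labelled SW DMSO and NS rottlerin, which is 1.62% of all regions. The 4 peak lists were joined for chromosomes 1 to 22, X and Y, with overlapping or touching peaks merged into 1 region, and the 660 members were then picked by the presence or absence of peaks. Presence in the lists, peak scores and fold enrichments therefore chose the members or are tied to that choice, and they are given below as a description. Position in the genome and DNA sequence played no part in the choice.

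Jurkat is a human T cell leukaemia line (Clone E6-1 here), and all samples came from it. NS cells were not stimulated. SW cells were stimulated for 4 h with PMA (phorbol 12-myristate 13-acetate) and ionomycin, washed, and cultured for 1 day without the stimulus. The 4 h come from the labels, whereas the study's methods give a shorter stimulation, so its length is not settled. DMSO is the vehicle, and rottlerin, which the study used as an inhibitor of protein kinase C, was given at 15 µM for 1 h beforehand. The series holds 9 libraries, of which 4 have a peak list and enter here, with 1 library per list and no replicate. The study's methods describe peak calling on its DMSO samples, whereas the labels assign 2 of the 4 lists to rottlerin, so a list is named here by its label and the cell state behind that label is not settled. No difference between lists can be tested, and all intervals given for shares are 95% intervals (Wilson's method, or Newcombe's for a difference) that cover counting error only.

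FAIRE (formaldehyde-assisted isolation of regulatory elements) recovers DNA that is poorly cross-linked to histones, so that sequencing it marks promoters, enhancers and other sites from which nucleosomes have been displaced. In T cells such sites are held by lineage factors of the RUNX, ETS, GATA and E protein families, and stimulation through protein kinase C and calcium adds AP1 and NFAT at inducible elements. E proteins such as TCF3 and TCF12 bind E-boxes, among them CACCTG, which the repressors ZEB1 and SNAI1 also bind.

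The 4 lists held 18977 (NS DMSO), 20132 (SW DMSO), 23835 (NS rottlerin) and 30409 (SW rottlerin) peaks, with median fold enrichments over input between 4.03 and 4.08. Promoters of 9, 9, 10 and 11 of 14 T cell marker genes carried a peak in these lists in the same order, including CD3D, CD3E, LCK, TCF7 and GATA3 in all 4. The T cell markers CD2 and CD7 had no peak in any list, and CD5 had one only in SW rottlerin. Of 7 B cell, 7 myeloid and 5 erythroid markers, at most 2, 1 and 0 were open in any list. A B cell marker was open in all 4 lists, whereas MS4A1, SPI1, CD14 and HBB were at 0 in all of them. Of 7 non-blood markers, KRT8 and COL1A1 were open in every list except SW rottlerin, and the part of these markers in the results was not tested.

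The sequences of 6 of the 7 members with the highest lower score of their 2 peaks are shown first, because these were among the best supported and because they already fell into the 2 kinds of site described below, promoters rich in CpG and distal sites. They are followed by 3 distal members that show the factor sequences whose shares are compared later. All come from GRCh37 (hg19), forward strand, with bases of UTRs and coding exons left out, and at most the central 300 bp are given. Capitals mark letters that match a factor family on either strand. For the RUNX family these were TGTGGT and its variant TGCGGT, for E-boxes they were CACCTG and separately CAGCTG, and for NFAT they were TGGAAA. The letters taken for the ETS family were CGGAAG and the longer AGGAAGT, and those taken for AP1 were TGANTCA. For the GATA family they were AGATAA and also TGATAA, each allowed to end in G instead of the last letter, and for EGR factors they were GCGNGGGC. Families can share letters, and a match of one may overlap a match of another.
CTRB2, chr16:75233302-75233522: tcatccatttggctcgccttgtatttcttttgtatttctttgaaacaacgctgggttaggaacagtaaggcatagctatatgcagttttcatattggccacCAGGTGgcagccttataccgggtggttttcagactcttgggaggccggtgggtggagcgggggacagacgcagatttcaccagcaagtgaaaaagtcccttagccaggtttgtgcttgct
AXIN2, chr17:63527729-63528028: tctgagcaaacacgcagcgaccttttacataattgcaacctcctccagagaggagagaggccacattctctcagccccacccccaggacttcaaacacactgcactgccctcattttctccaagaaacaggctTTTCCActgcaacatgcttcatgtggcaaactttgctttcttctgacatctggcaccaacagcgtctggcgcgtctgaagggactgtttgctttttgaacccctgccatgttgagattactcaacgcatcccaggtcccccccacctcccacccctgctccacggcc
PRMT9, chr4:148605315-148605454: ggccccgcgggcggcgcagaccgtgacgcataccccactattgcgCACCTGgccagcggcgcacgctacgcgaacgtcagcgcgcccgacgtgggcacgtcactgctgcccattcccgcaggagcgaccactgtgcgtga
SOX2, chr3:181418326-181418558: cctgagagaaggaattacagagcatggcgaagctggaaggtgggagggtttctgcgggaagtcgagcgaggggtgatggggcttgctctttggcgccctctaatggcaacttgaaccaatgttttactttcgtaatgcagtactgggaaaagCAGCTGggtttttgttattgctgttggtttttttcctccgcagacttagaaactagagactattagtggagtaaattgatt
JRKL, chr11:96197066-96197304: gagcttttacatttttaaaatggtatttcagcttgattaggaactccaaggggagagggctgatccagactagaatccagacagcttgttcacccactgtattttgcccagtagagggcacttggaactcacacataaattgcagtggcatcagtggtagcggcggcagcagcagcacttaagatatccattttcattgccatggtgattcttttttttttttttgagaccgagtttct
TUFT1, chr1:151512608-151512780: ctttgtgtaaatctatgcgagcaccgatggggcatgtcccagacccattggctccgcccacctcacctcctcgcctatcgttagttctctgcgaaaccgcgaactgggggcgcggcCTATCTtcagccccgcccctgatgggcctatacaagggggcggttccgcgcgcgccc
GATAD2A, chr19:19591670-19591890: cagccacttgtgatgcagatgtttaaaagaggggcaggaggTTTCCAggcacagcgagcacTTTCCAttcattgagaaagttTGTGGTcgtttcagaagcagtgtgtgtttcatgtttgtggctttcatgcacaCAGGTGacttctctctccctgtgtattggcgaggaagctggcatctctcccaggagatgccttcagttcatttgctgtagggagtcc
GGA1, chr22:38000975-38001203: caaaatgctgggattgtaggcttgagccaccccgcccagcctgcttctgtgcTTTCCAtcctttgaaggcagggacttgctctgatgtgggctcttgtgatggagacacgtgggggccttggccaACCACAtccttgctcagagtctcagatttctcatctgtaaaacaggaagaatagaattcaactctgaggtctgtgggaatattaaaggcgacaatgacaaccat
ADAMTS18, chr16:77595092-77595355: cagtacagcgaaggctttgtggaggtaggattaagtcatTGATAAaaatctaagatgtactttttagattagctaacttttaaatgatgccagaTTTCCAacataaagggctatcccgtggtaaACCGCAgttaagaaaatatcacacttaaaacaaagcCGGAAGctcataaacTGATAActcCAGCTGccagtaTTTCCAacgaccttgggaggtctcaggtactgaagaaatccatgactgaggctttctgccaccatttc

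The printed PRMT9 and TUFT1 stretches, from promoters of a protein arginine methyltransferase and of tuftelin, held 21 and 16 CpG dinucleotides in 140 and 173 bp. By contrast the distal JRKL stretch held 3 in 239 bp and matched none of the marked sequences. The distal AXIN2, SOX2 and CTRB2 stretches held 7, 7 and 6 CpGs, and each had 1 marked match, to NFAT, CAGCTG and CACCTG respectively. The last 3 stretches, near GATAD2A, GGA1 and ADAMTS18, each held 1 RUNX match beside 2, 1 and 2 NFAT matches.

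The members were weak peaks in both lists, by a score that is 10 times the −log10 of the peak's q-value. Their scores ran from 11 to 141 in the NS DMSO list (median 37) and from 10 to 109 in the SW rottlerin list (median 35), against medians of 57 and 53 over the whole lists. In the NS DMSO list 537 of 660 (81.4%) lay under that list's median, and in the SW rottlerin list 529 (80.2%) did so, while 41 reached the median in both. Members made up 6.08% of NS DMSO regions with a score of 10 to 19 and 6.89% of those from 20 to 29. From a score of 100 to 149 the share was 0.279%, and from 150 on it was 0 of 1781, an upper limit of 0.215%. The SW rottlerin list showed the same slope, from 4.47% at 10 to 19 down to 0.106% at 100 to 149 and 0 of 2822 above that. A q-value of 0.05 or less was met by both peaks in 626 members.

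**Figure D1:**
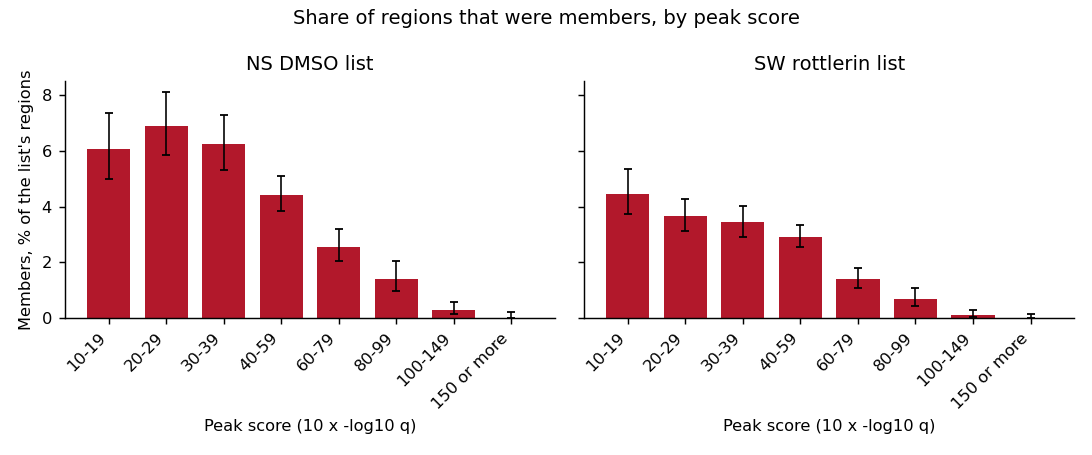
Percent of the regions of the NS DMSO list (left) and of the SW rottlerin list (right) that were members, by the score of the list's highest peak in the region; bars are shares and whiskers 95% Wilson intervals. The share falls from 6.08% and 4.47% in the lowest class to 0 in the highest.

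Each member held exactly 1 peak of each list. The peaks overlapped by a median of 172 bp, or 71.5% of the region, and in 262 members 1 peak lay wholly inside the other. At the edge of the rule the smallest overlaps were 15 bp near MEIS2 (scores 17 and 15), 19 bp near ZNF705A and 24 bp near RBBP8. Just outside it, an NS DMSO and an SW rottlerin peak near DNMBP (scores 43 and 37) missed each other by 9 bp and peaks near KIAA1217 by 18 bp, and 5 such pairs in all were at most 100 bp apart. The nearest peak of either absent list was a median of 16221 bp away, and in 30 members (4.55%) it was within 1 kb. The other 630 members had no peak of SW DMSO or NS rottlerin within that distance. In 12 there was a region open in all 4 lists within 1 kb.

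Fold enrichment over input was much alike in the 2 lists. Its median over members was 3.64 in the NS DMSO list (range 2.06 to 6.44) and 3.52 in the SW rottlerin list (1.91 to 6.33). The ratio of SW rottlerin to NS DMSO had a median of −0.05 on the log2 scale (interval −0.07 to −0.02). This interval comes from the ranked values of the members and covers the spread among members only, not that between libraries. In 288 members (43.6%) the value was higher in SW rottlerin. Over all 14037 regions with a peak in both lists, members included, the median log2 ratio was 0.09 and 63.2% were higher in SW rottlerin. With equally long lists, where 226 of the 341 members lay at 1 of the 660, the members' median was 0.14, so its sign changed with the peaks used, and the cause was not tested. The study called changed accessibility from 0.81 on the log2 scale in read counts, a measure unlike the fold enrichment used here. A difference of at least 0.81 in fold enrichment was found in 1 member with the higher value in SW rottlerin, against 1.15% of all regions with both peaks. It was found in 2 with the higher value in NS DMSO, against 0.328%. These 3 members were in FRY, with fold enrichments of 3.13 in NS DMSO and 5.48 in SW rottlerin, in ZC3H18 (5.50 and 3.09) and near BAG3 (5.43 and 3.06). FRY encodes a large scaffold protein, ZC3H18 a zinc finger protein of nuclear RNA export and decay, and BAG3 a co-chaperone of HSP70.
The other four members with the largest ratios had DTNA (3.57 and 5.82), KCNRG (2.72 and 4.43), CCSER2 (3.24 and 5.26) and PPIAL4A (2.75 and 4.18) as the nearest coding gene, at distances from 12.8 to 382 kb. The other three with the smallest were nearest to STK39 (5.38 and 3.10), SSR1 (5.65 and 3.29) and ANKRD11 (5.21 and 3.16). None of these 10 lay within 1 kb of the start of a protein-coding gene.

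**Figure D2:**
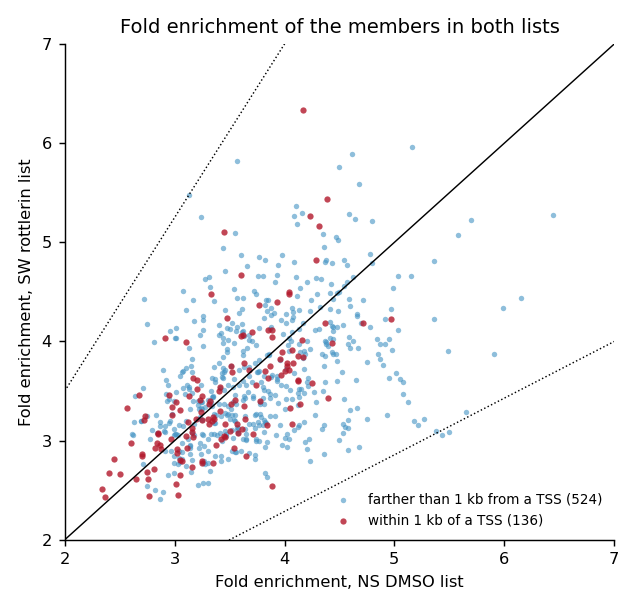
Fold enrichment over input of each of the 660 members in the NS DMSO list (horizontal) and the SW rottlerin list (vertical); red points lie within 1 kb of a coding transcription start site and blue points farther away, the solid line marks equal values and the dotted lines a difference of 0.81 on the log2 scale. Points scatter around the solid line, with 3 on or past a dotted line.

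Members lay mostly in introns and between genes. Their share at promoters was above that of 4 groups held by 1 or 2 lists but under that of all merged regions. Regions with a peak in both lists and in 1 further list were not compared as a group. Mid-points were placed on the genes of GENCODE 44, with a UTR or exon taking precedence over an intron, and an intron over the flanks (a promoter is the 1 kb before a start site, and upstream sequence reaches 10 kb). Introns held 392 (59.4%) and intergenic sequence 99 (15.0%), together 74.4% (70.9 to 77.6), against 70.0% of all merged regions. Weighted to the members' scores, all regions gave 75.1%. The share was 79.2% of regions only in NS DMSO and SW DMSO and 76.5% of those only in NS DMSO and NS rottlerin. NS DMSO alone had 80.8% and SW rottlerin alone 78.5%, so the members were not above these 4 groups. The 5′UTRs held 30 members, 3′UTRs 16, other exons 49, promoters 42 and upstream sequence 32.

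Within 1 kb of the transcription start site (TSS) of a protein-coding gene there were 136 members, or 20.6% (17.7 to 23.9), against 24.3% of all merged regions and 46.9% of every region with a peak in both lists. Regions found only in NS DMSO and SW DMSO were there in 7.98% (41 of 514), those only in NS DMSO and NS rottlerin in 8.29% (70 of 844), and those of NS DMSO alone in 6.46% (206 of 3187). Members thus exceeded these 3 groups by 12.6 (8.68 to 16.5), 12.3 (8.75 to 16.0) and 14.1 (11.1 to 17.5) percentage points. Regions of SW rottlerin alone stood between at 12.8% (950 of 7419), 7.80 points below the members (4.79 to 11.1). With the higher-scoring 50% of each list, 369 regions met the rule, of which only 40 lay at 1 of the 660, and 33.6% of them (29.0 to 38.6) were within 1 kb of a TSS, against 17.3%, 17.3%, 11.7% and 19.9% of the same 4 groups. With the same number of peaks taken from every list, 341 met it, 226 of them at 1 of the 660, and the share was 24.9% (20.6 to 29.8) against 13.9%, 10.8%, 8.93% and 16.7%. Regions open in all 4 lists were near a TSS in 54.6%. When all regions were weighted to the members' scores, 16.4% lay within 1 kb of a TSS. CpG-island-like windows had over 50% GC in the central 300 bp and an observed to expected CpG ratio over 0.6. They made up 19.1% of members but 4.47%, 4.15% and 3.51% of the 3 NS DMSO groups and 10.1% of SW rottlerin alone. They made up 21.0% of all merged regions, which lies inside the members' interval (16.3 to 22.3). Of every region with a peak in both lists they made up 43.0%. Of those 14037 regions, 10841 were open in all 4 lists. These held 5920 of the 6585 near a TSS and 5445 of the 6034 that were CpG-island-like. Regions with both peaks and 1 further list (857 with SW DMSO, 1679 with NS rottlerin) were not compared. Neither excess is therefore shown to be particular to the members.

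**Figure D3:**
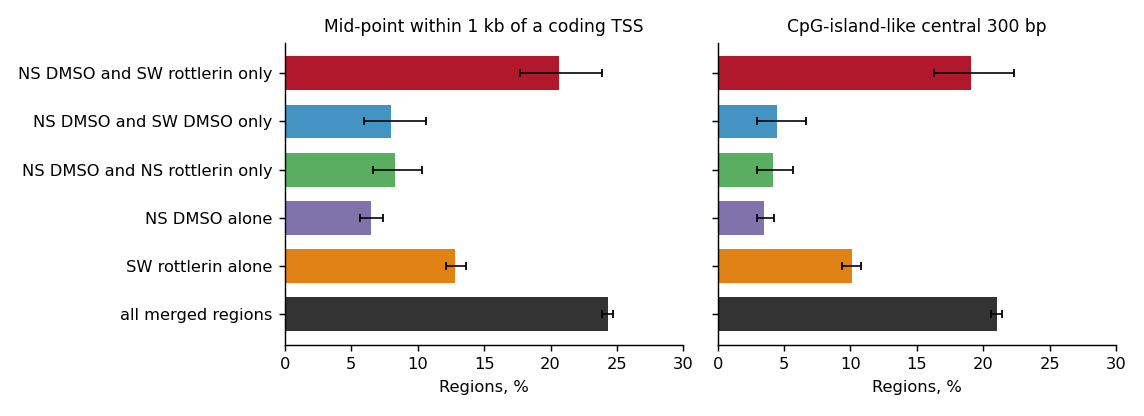
Percent of regions whose mid-point lay within 1 kb of a coding TSS (left) and whose central 300 bp were CpG-island-like (right), for the 660 members (red), 4 other groups of regions named by the lists that held them, and all merged regions; whiskers are 95% Wilson intervals. The members stand at 20.6% and 19.1%, above the 4 other groups and under all merged regions (24.3% and 21.0%).

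The 136 members at promoters lay close to the start site itself. Their mid-points fell a median of 88 bp from the TSS, 101 were within 200 bp of it, and 88 lay upstream. Their central windows had a median GC content of 66.8%, with 25 CpGs, and 102 were CpG-island-like. The 524 others had a median GC content of 42.7% with 3 CpGs, and 24 were CpG-island-like. In only 13 of the 136 was a peak of an absent list within 1 kb, and in 6 a region of all 4 lists, so that most of these promoters had no peak of the absent lists within 1 kb. Start sites on both strands within 1 kb were found at 11 of them (8.09%, 4.58 to 13.9), against 12.4% of all promoter regions, which lies inside that interval, and 15.8% (14.9 to 16.7) of promoter regions open in all 4 lists.

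Stronger members were more often at promoters, which also held for regions in general. Over all merged regions the median highest score was 94 within 1 kb of a coding TSS and 47 farther away. Members were split by their lower score into 3 sets of 220. In the highest set (35 to 84), 62 (28.2%, 22.7 to 34.5) were within 1 kb of a TSS, against 41 (18.6%, 14.0 to 24.3) and 33 (15.0%, 10.9 to 20.3) in the middle and lowest sets. Of the 25 highest members, 11 were there (44.0%, 26.7 to 62.9).

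Besides PRMT9 and TUFT1, 8 of those 11 promoters belonged to PEX11G, MPP2, TMEM234, GMEB2, ELOA, FAHD2A, SDHAF4 and YOD1. PRMT9 had scores of 76 in NS DMSO and 106 in SW rottlerin, and TUFT1 had 85 and 75. GMEB2, which encodes a factor that binds glucocorticoid modulatory elements, had 98 and 65, with 52 CpGs in its window. ELOA, the transcriptionally active subunit of the elongation factor elongin, had 90 and 65, and its nearest NS rottlerin peak was 796 bp away. PEX11G, a peroxisomal membrane protein, had 90 and 71. The scaffold protein MPP2 had 82 and 67. FAHD2A had 63 and 80, SDHAF4, an assembly factor of succinate dehydrogenase, had 67 and 61, and the deubiquitinase YOD1 had 60 and 84. TMEM234 had 66 and 77, and this member also lay 29.0 kb from a start site of LCK, the kinase that starts T cell receptor signalling. Several are genes that cells of many kinds express, and neither list was uniformly the higher.

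The 14 distal members among the 25 highest lay between 2.15 kb (SRI) and 348 kb (GRID1) from a coding TSS. CTRB2, a chymotrypsinogen, was the nearest coding gene of the highest of them, 6.28 kb away, with scores of 102 in NS DMSO and 82 in SW rottlerin. In an intron of AXIN2, an inhibitor of Wnt signalling, a member had 80 and 97. A member 11.3 kb upstream of SOX2, a stem cell transcription factor, had 93 and 76 and was 43 bp from a non-coding start site. A member 10.8 kb upstream of CSK, which restrains LCK, had 64 and 66. Another, 10.8 kb upstream of a BCR start site, had 84 and 63. JRKL had 91 and 76, GGA1, an adaptor of Golgi sorting, had 72 and 90, and B3GALNT2, a glycosyltransferase, had 109 and 67. QDPR, which regenerates tetrahydrobiopterin, had 67 and 93. SRI, a calcium-binding protein, had 60 and 104. C15orf40 had 62 and 77, the glutamate receptor gene GRID1 had 65 and 62, and the chromatin genes GATAD2A and CHD2 had 89 and 61, and 60 and 75.

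Away from promoters, the members had a RUNX share above that of SW rottlerin alone, an NFAT share above the 3 groups that hold NS DMSO, and an AP1 share well under that of SW rottlerin alone. Only the 524 members farther than 1 kb from a coding TSS are used here, since promoter and distal windows differ in GC content. Shares are of central 300 bp windows that hold the letters on either strand, and a match shows the letters and not that a factor was bound.

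NFAT letters were in 195 of 524 distal members (37.2%, 33.2 to 41.4). They were in 24.3% of regions only in NS DMSO and SW DMSO, in 19.0% of those only in NS DMSO and NS rottlerin, and in 23.7% of NS DMSO alone. The differences were 12.9 (7.18 to 18.5), 18.2 (13.2 to 23.2) and 13.5 (9.21 to 18.0) points. SW rottlerin alone had more, 46.5%, and the members differed from it by −9.30 points (−13.5 to −4.91). All distal regions weighted to the members' GC content gave 32.0%. With changed lists, the distal regions that met the rule also stood above the 3 groups that hold NS DMSO and below SW rottlerin alone. With the higher-scoring 50% of each list they had 35.5%, against 23.1%, 13.9%, 23.2% and 45.9%. Only 40 of all 369 regions that met the rule there lay at a member as reported, so they are largely other regions. With equally long lists the share was 41.8%, against 28.3%, 18.6%, 24.6% and 49.4%. Of all 341 regions that met the rule there, 226 lay at a member as reported.

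AP1 letters were in 48 distal members (9.16%, 6.98 to 11.9), against 24.8% of SW rottlerin alone and 21.7% of all distal regions at the members' GC content. The members differed by −15.6 points (−18.1 to −12.7) from SW rottlerin alone and were 2.95 points above NS DMSO alone (0.585 to 5.85), which had 6.21%. With equally long lists, 341 regions met the rule, 226 of them at a member as reported. The distal ones among the 341 had 6.64% (4.19 to 10.4) and NS DMSO alone 6.65%, so that difference was lost. From regions only in NS DMSO and SW DMSO (12.3%) and only in NS DMSO and NS rottlerin (7.36%) the difference had intervals that include 0, −7.03 to 0.740 and −1.20 to 5.02 points. NFAT and AP1 letters stood in the same window in 15 distal members (2.86%, 1.74 to 4.67), against 6.96% of all distal regions. SW rottlerin alone had 11.3% and NS DMSO alone 1.11%.

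RUNX letters were in 251 distal members (47.9%, 43.7 to 52.2), against 42.7% of all distal regions at the members' GC content. The share was 10.3 points above SW rottlerin alone (37.6%; 5.87 to 14.7) and differed by −9.39 points (−15.5 to −3.19) from regions only in NS DMSO and SW DMSO (57.3%). From NS DMSO alone (51.4%) the difference was −3.46 points (−8.07 to 1.18), and from regions only in NS DMSO and NS rottlerin (49.2%) it was −1.32 points (−6.84 to 4.21). With the higher-scoring 50% of each list, 369 regions met the rule, only 40 of them at a member as reported. The distal ones among the 369 had 54.7% (48.4 to 60.8), against 63.1% (60.4 to 65.8) of NS DMSO alone. Regions only in NS DMSO and NS rottlerin then had 51.3% and SW rottlerin alone 43.9%. RUNX and NFAT letters shared a window in 105 of the 524 distal members (16.8 to 23.7%), as in the GGA1 stretch above, which was picked to show both. All distal regions had 13.4%, NS DMSO alone 10.8% and SW rottlerin alone 18.4%.

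The E-box CACCTG was in 144 distal members (27.5%, 23.8 to 31.5), between NS DMSO alone with 39.7% and SW rottlerin alone with 16.6%, and against 21.0% of all distal regions at the members' GC content. The members differed from these by −12.2 (−16.3 to −7.86) and 10.8 (7.08 to 14.9) points. From regions only in NS DMSO and SW DMSO the difference was −9.94 points (−15.7 to −4.12). The difference from those only in NS DMSO and NS rottlerin was −4.69 points (−9.66 to 0.411).

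ETS letters were scarce, in 73 distal members (13.9%, 11.2 to 17.2). Regions only in NS DMSO and NS rottlerin held them in 30.0%, from which the members differed by −16.0 points (−20.3 to −11.6), and all distal regions at the members' GC content in 23.0%. Regions only in NS DMSO and SW DMSO (14.4%) and NS DMSO alone (14.2%) differed from the members by under 1 point, with intervals of −4.83 to 3.88 and −3.29 to 3.15 points. SW rottlerin alone held ETS letters in 19.8%, from which the members differed by −5.84 points (−8.72 to −2.47). TCF/LEF letters (CTTTGA) were in 33.2% (29.3 to 37.3), which was 6.99 (1.30 to 12.6), 7.62 (2.59 to 12.7) and 6.81 (2.59 to 11.2) points above the 3 NS DMSO groups, and 3.94 points (−0.112 to 8.23) above SW rottlerin alone. GATA letters were in 47.9%, against 52.2% of all distal regions at the members' GC content. MYB letters (AACTGNC) were in 20.2%, against 15.4%. For both families the differences from the 3 NS DMSO groups had intervals that include 0. From SW rottlerin alone the members differed by −8.31 points in GATA (−12.7 to −3.86) and by 5.17 points in MYB (1.83 to 8.92).

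**Figure D4:**
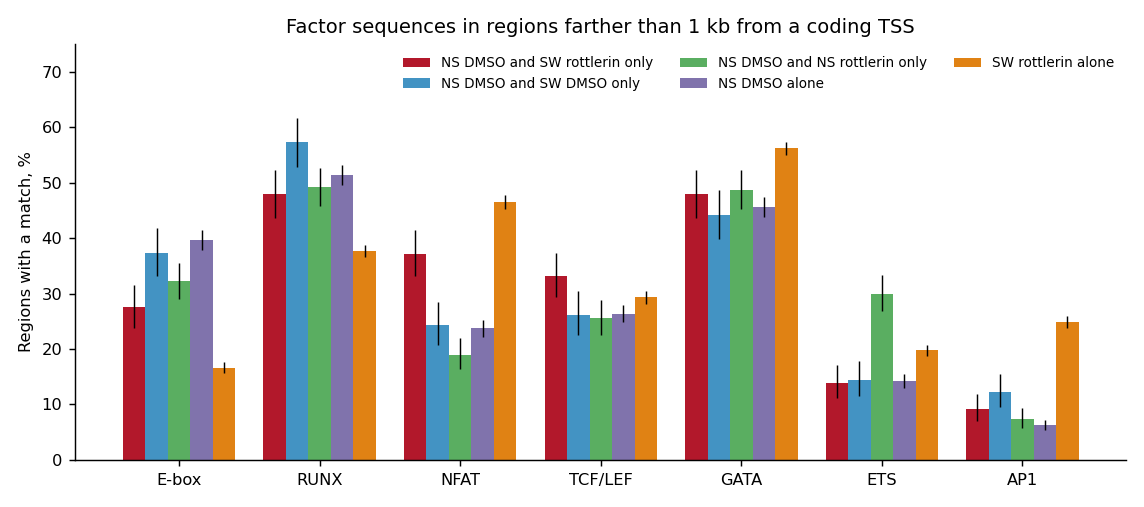
Percent of regions farther than 1 kb from a coding TSS whose central 300 bp held each factor's letters on either strand, for the 524 distal members (red) and 4 other groups named by the lists that held them; E-box stands for its CACCTG form and whiskers are 95% Wilson intervals. In NFAT the members (37.2%) lie above the 3 NS DMSO groups and below SW rottlerin alone, and in AP1 (9.16%) they lie far below SW rottlerin alone.

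Position within the region differed between the families. RUNX letters peaked at the middle of the distal members, in 21.8% and 23.1% of them in the 100 bp on either side of the mid-point, and fell to 6.49% and 7.44% in the outermost 100 bp, 400 to 500 bp away. ETS letters rose to 7.25% and 5.15% at the middle from 3.82% and 3.63% outside. CACCTG rose to 9.92% and 11.3% in the middle from 6.49% and 8.02% outside, whereas in NS DMSO alone it reached 19.1% and 18.1%. NFAT was at 13.7% and 14.1% in the middle and at 11.1% on both outer sides. In SW rottlerin alone NFAT rose to 20.9% and 21.3% in the middle, and in NS DMSO alone it dipped to 7.78% and 8.82%. AP1 letters were at 3.24% and 2.86% in the middle of the members and at 3.82% and 3.63% outside.

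**Figure D5:**
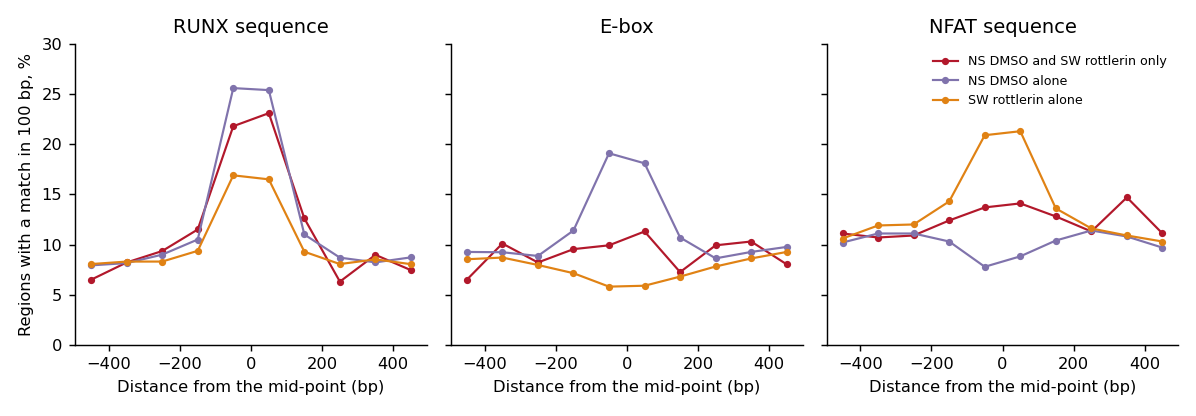
Percent of distal regions with a match in each 100 bp bin, by distance of the bin from the region's mid-point, for RUNX (left), the E-box CACCTG form (centre) and NFAT (right); red is the 524 members, purple NS DMSO alone and orange SW rottlerin alone. RUNX peaks at the mid-point in all 3 groups, with 21.8% and 23.1% in the members. The members' E-box and NFAT lines rise less there than their RUNX line.

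Among the 6 families compared by strength, GATA letters differed most between strong and weak members. RUNX letters were in 48.1%, 46.9% and 48.7% of distal members in the highest, middle and lowest of the 3 sets by score. NFAT letters went from 40.5% (33.2 to 48.3) to 36.9% and 34.8% (28.3 to 41.8), and CACCTG from 31.6% (24.9 to 39.3) to 27.9% and 23.5% (18.0 to 30.1), with overlapping intervals. GATA letters were in 37.3% (30.2 to 45.1) of the highest set and 55.1% (47.9 to 62.0) of the lowest.

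In the 136 promoter members most shares had intervals that include the share of all promoter regions at their GC content, apart from CACCTG and AP1 below. CACCTG was in 27.2% (20.4 to 35.2), as in the PRMT9 stretch above, against 19.4% of all promoter regions at their GC content. Without GC weighting, promoter regions only in NS DMSO and SW DMSO had 41.5%, and those only in NS DMSO and NS rottlerin 28.6%. Promoter regions of NS DMSO alone had 41.7% and those of SW rottlerin alone 20.4%. The members differed from NS DMSO alone by −14.5 points (−24.2 to −4.20). From the others, in the same order, the difference had intervals of −30.9 to 1.63, −14.7 to 10.9 and −0.502 to 15.2 points. A share above 19.4% was thus not particular to the members. ETS letters were in 29.4% (22.4 to 37.6) of the promoter members, against 36.5% of all promoter regions at the members' GC content. EGR letters were in 23.5% (17.2 to 31.3) against 26.2%, and NFAT letters in 18.4% (12.8 to 25.7) against 16.1%. AP1 letters were in 2 (1.47%, 0.404 to 5.20) against 5.59%.

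Near genes of T cell function the share of members had intervals that include their share of all regions. Regions were counted for a gene when they lay in its body or within 50 kb of a start site, and members were 1.62% of all regions. Among the 35 T-lineage transcription factors, 8 had a member and members were 11 of 389 regions (2.83%, 1.59 to 4.99). They were SATB1, ETS1 and ELF1 with 2 members each, and TCF12, IKZF2, MEF2C, MYB and IKZF1 with 1. The highest was near the start of an alternative TCF12 transcript (scores 27 in NS DMSO and 33 in SW rottlerin), followed by 1 at SATB1, a chromatin organiser of T cells (25 and 57), and 1 in an intron of ETS1, the founding ETS factor (25 and 46). The IKZF1 member, 57 bp from a start site of the Ikaros gene, had 13 and 21.

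The 36 T cell receptor signalling genes had 5 members among 305 regions (1.64%, 0.702 to 3.78), at LCK (the TMEM234 promoter above), SH2D1A, ZAP70 and, with 2 members, VAV3. SH2D1A, an adaptor of SLAM receptors, had scores of 58 and 20, and the ZAP70 member, 1.62 kb from a start site of this receptor-proximal kinase, had 25 and 14. The 37 cytokine, chemokine and receptor genes had 2 among 196 (1.02%, 0.280 to 3.64). One lay 33.3 kb from the start of IL7R, the receptor of the survival cytokine interleukin-7 (58 and 50), and the other 21.5 kb from IFNG, which encodes interferon gamma (42 and 22). The 36 activation-induced transcription factors had 2 among 272 (0.735%, 0.202 to 2.64), which were 69 bp from a start site of PRDM1, the gene of the repressor Blimp-1 (27 and 42), and 28.3 kb from FOSB (26 and 12). The 26 adhesion and migration genes had 3 among 238 (1.26%, 0.430 to 3.64), of which 2 were at ELMO1, a partner of DOCK proteins, with 52 and 40 and with 22 and 28, and 1 at ARHGAP15 with 37 and 33. Around the 20 genes whose regions the study tested by FAIRE-PCR, chosen by it on these samples, 0 of 162 regions were members (up to 2.32%).

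Members were scattered over the genome. TBC1D5 had 4 of them, 2 of which are also the SATB1 members, and FHIT had 3, and no other gene had 3 or more. Among 637 pairs of neighbouring members on a chromosome, 3 were within 10 kb and 17 within 50 kb of each other, the closest at YOD1 (795 bp) and NFE2L3 (900 bp). By chromosome, members made up 0.976% (chromosome 18) to 2.14% (chromosome 15) of regions, apart from Y with 0 of 18.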

How the data were processed

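FAIRE-seq was made from Jurkat cells, 1 library per state. According to the study's methods and the processing notes, the authors used cutadapt for trimming, Bowtie2 for alignment (build hg19), Picard for duplicates and MACS2 for broad peaks relative to total input (versions not given in the sources used here). Each deposited peak has a score (10 times −log10 q without decimals), a fold enrichment (a linear ratio to input), a −log10 p-value and a −log10 q-value. Read depth is unknown from these lists, so short lists may reflect depth.

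Peaks were merged as in bedtools 2.31.1 (checked on simulated lists), mid-points placed on GENCODE 44 (GRCh37), and letters searched in the central 300 bp with Python 3.11.15. For GC weighting, all regions were reweighted to the members' GC classes. With 1 library per list no test was run, and shares carry 95% Wilson or Newcombe intervals. The other 5 samples were not analysed here, and 1 member and 1 marker gene are not reported here by name.

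The members and all gene and sequence lists were chosen with earlier results of these data known, and the split at 1 kb for sequence shares after values were seen. Genes named are those of the 25 members with the highest lower score, the 5 largest and 5 smallest fold ratios, list genes with a member, genes with 3 or more members, and members at the edge of the rule.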

Additional observations from a re-analysis of the deposited data

How the results depend on the processing

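Over 14 results and 11 alternatives, 89 of 115 values stayed within the interval of the reported value or, for counts, within 1.5 times. The 5 distal shares, and the other groups under changed lists, were added after seeing the data. With the higher-scoring 50% of each list there were 369 members, only 40 of them at a member as reported. Of the 369, 66.7% were in introns or intergenic sequence and 33.6% within 1 kb of a coding TSS. Their median GC content was 49.0% and their median log2 fold ratio −0.01. ETS letters were in 20.3% (17.6% of distal ones) and RUNX letters in 54.7% of distal ones. With equally long lists (18977 peaks) there were 341 members, 226 of them at a member as reported. Of the 341, 24.9% were near a TSS, 21.7% had ETS letters and 5.28% had AP1 letters (6.64% of distal ones). NFAT letters were in 41.8% of distal ones, and the log2 fold ratio turned to 0.14. Placing promoters first left 65.3% in introns or intergenic sequence, and counting TSSs of any gene put 27.7% within 1 kb. In the central 500 bp, CACCTG, ETS, RUNX and AP1 letters were in 39.8%, 25.6%, 54.1% and 12.7% of members, and CACCTG, NFAT, ETS, RUNX and AP1 letters in 39.7%, 50.8%, 21.2%, 57.8% and 15.5% of distal ones, as a longer window must hold at least as many; for the other alternatives the cause was not tested.

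No paired analysis was possible because each list comes from 1 library and no result comes from a test. Members are weak peaks, so absence from a list means only that no peak was called there, and depth, which the lists do not give, limits that call.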
